A study of Mus musculus with 4 samples.

Results

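Young neurons and GABA-releasing interneurons share a small set of marker genes, and 10 of these were sought in RNA from cultured mouse oligodendrocytes with and without Zdhhc5, which encodes an enzyme that attaches palmitate to proteins. The genes were chosen by name: Gad1, Gad2, Dcx, Stmn2, Snap25, Dlx1, Dlx2, Dlx5, Nefl and Nefm. Of these 10, 8 were among the 6940 genes of the deposited table, and the neurofilament genes Nefl and Nefm were not analysed here. Conditional knockout cells (cKO, 2 libraries) had the genotype Olig1cre/+;Zdhhc5fl/fl, in which Cre made from the Olig1 locus removes the floxed gene from cells of that lineage. Control cells (Ctrl, 2 libraries) were Zdhhc5fl/fl without Cre, so that what Cre or the altered Olig1 locus does cannot be told apart from what the deletion does. All cells came from cortex of C57BL/6 pups at postnatal day 5, were captured on antibodies to GalC and then O4, grew for 6 days and were harvested after 24 h in differentiation medium with triiodothyronine at 40 ng/mL. The labels give no animal or culture for the 2 libraries of each genotype, so p-values rest on the spread between libraries, which may be technical. That spread was also pooled over genes, so the p-value of a gene is not set by its own 4 libraries alone.

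GABA is made from glutamate by a pair of decarboxylases, the products of Gad1 and Gad2, and is loaded into vesicles by the product of Slc32a1. Interneurons of the cortex are born in the ganglionic eminences of the embryonic forebrain under the control of homeobox transcription factors of the Dlx family, and in mouse embryos Dlx1 and Dlx2 also restrain the formation of oligodendrocyte precursors. Doublecortin, the product of Dcx, binds microtubules in migrating young neurons. Transcripts of Gad1 and Dcx have been reported in rodent oligodendrocyte precursors as well, so neither gene marks neurons alone.

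The promoters of 4 of the genes are shown because Gad1, Dlx1 and Dlx2 were higher in cKO cells and Dcx lower under the authors' scaling (log2 fold change -0.40), although Dcx too was higher with the trend with GC content removed (0.27). Each is the 250 bases before a transcription start, 5′ to 3′ on the strand of the gene, taken from RefSeq on build GRCm38.p6: Gad1 at chr2:70561879-70562128 (plus strand), Dlx1 at chr2:71529195-71529444 (plus strand), Dlx2 at chr2:71546755-71547004 (minus strand) and Dcx at chrX:143933220-143933469 (minus strand). By the gene spans given below, the Gad1 and Dlx1 windows lie inside the gene and the Dcx window overlaps it. The spans of these genes thus begin further upstream than the starts used. Capitals mark TAAT and its reverse complement ATTA, the core read by many homeodomain proteins, which overlap where they form TAATTA.
Gad1: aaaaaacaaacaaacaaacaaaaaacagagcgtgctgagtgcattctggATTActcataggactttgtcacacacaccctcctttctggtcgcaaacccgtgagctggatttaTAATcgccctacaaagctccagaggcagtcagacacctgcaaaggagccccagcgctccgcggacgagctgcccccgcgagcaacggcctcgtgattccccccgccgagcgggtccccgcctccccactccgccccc
Dlx1: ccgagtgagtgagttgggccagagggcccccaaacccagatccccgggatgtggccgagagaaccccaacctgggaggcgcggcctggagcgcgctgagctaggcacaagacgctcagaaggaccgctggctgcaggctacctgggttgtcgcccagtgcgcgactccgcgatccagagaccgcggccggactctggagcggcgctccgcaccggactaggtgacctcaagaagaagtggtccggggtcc
Dlx2: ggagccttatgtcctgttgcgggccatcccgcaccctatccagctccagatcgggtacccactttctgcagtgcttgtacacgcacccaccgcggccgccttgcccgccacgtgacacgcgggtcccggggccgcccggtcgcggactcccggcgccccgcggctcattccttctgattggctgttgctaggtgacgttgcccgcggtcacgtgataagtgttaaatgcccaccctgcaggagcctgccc
Dcx: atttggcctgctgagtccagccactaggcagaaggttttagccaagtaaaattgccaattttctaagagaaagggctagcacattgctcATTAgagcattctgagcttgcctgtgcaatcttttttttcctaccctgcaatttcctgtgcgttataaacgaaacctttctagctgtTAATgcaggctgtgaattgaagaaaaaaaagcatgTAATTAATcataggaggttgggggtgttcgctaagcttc
The Dcx window held TAATTA once, beginning 39 bases before the start, and the windows of Gad1, Dlx1 and Dlx2 held no match to it. A second Dcx start in the table gave an overlapping window that held the same match. TAATTA, which reads the same on both strands, occurred in 4.84% of all 32851 such windows of the RefSeq table. TAAT or ATTA occurred 5 times in the Dcx window, 2 times in that of Gad1 and in neither Dlx window, against 54.9% of all windows with at least 1 match. The Dcx window was also poorer in G and C, at 41.6%, against 58.0% for Gad1, 68.0% for Dlx1 and 66.4% for Dlx2. It held 3 CG pairs against 17, 22 and 24. Medians over all windows were 52.4% and 6 CG pairs, with Dcx below both and Gad1, Dlx1 and Dlx2 above both. The window of Gad2 at chr2:22622077-22622326 held no TAAT or ATTA. Stmn2, Snap25, Dlx5, Nefl and Nefm had no entry in the promoter table.

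Values are normalised reads, that is, reads per gene divided by 1 size factor per library. Summed over listed genes, recovered reads came to 20068016 and 13672254 in the cKO libraries and 17077509 and 16773675 in the Ctrl libraries. All listed genes had an adjusted p under 0.05 in the authors' deposited table, so every gene below had already been selected for a difference between these same libraries. In limma, the linear model used here, 100% of the listed genes again passed an adjusted p of 0.05, 46.7% of them higher and 53.3% lower in cKO cells. That a neuronal gene passed is therefore no finding in itself, and what follows describes direction, size and level. The oligodendrocyte label was checked against markers: the summed normalised reads of 10 listed myelin genes were 65868 and 68095 in cKO cells, against 325694 and 326451 in Ctrl cells, while the astrocyte filament gene Gfap held the most reads of any listed gene in each of the 4 libraries. Zdhhc5 itself was not analysed here, so the genotype labels were not checked by its level.

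Of the 8 neuronal genes listed, 7 rose in cKO cells and Dcx fell, although Dcx was higher when the trend with GC content was removed. The median log2 fold change of the 8 was 0.69, against -0.22 over all listed genes. In each of the 8 genes the cKO values lay wholly above or wholly below the Ctrl values, as they did in 6939 of the 6940 listed genes. In bulk RNA a change in the number of cells of a type and a change in RNA per cell cannot be told apart. Recovered reads per gene and library ran from 102 for Dlx5 in Ctrl 1 to 3706 for Dcx in Ctrl 2.

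**Figure D1:**
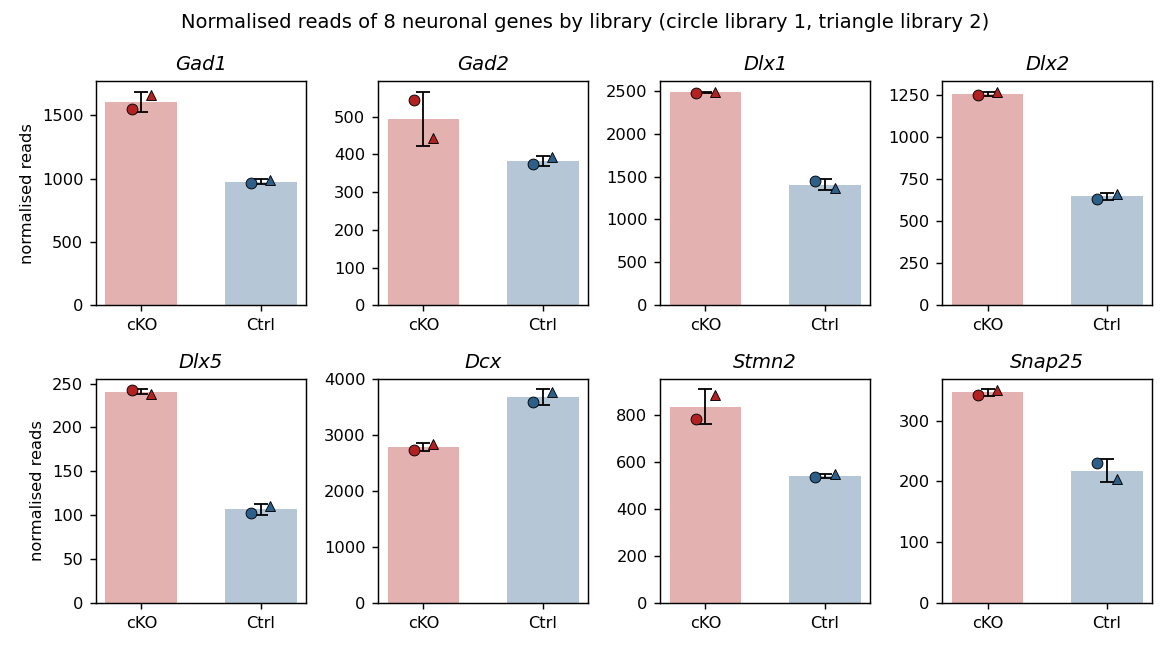
Normalised reads (vertical axis, from 0) of the 8 genes in cKO and Ctrl libraries. Bars are means of 2 libraries, error bars SD, the circle library 1 and the triangle library 2. The cKO points lie above the Ctrl points in 7 genes and below them in Dcx, whose direction turns when the trend with GC content is removed.

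Gad1, whose product makes most of the GABA of the brain, had 1551.3 and 1663.6 normalised reads in the cKO libraries, against 962.0 and 989.6 in the Ctrl libraries. The groups were well separated, the higher Ctrl value lying far under the lower cKO value. Gad1 averaged 1607 ± 79.4 in cKO cells and 975.8 ± 19.5 in Ctrl cells (SD, n = 2 each) and rose 1.65-fold (log2 fold change 0.72 with SE 0.06, adjusted p 1.59e-10 in limma). Without the trend of variance with level, its adjusted p in limma was 0.00165. Gad1 (ENSMUSG00000070880) spans chr2:70553072-70602014 on the plus strand of GRCm38.

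Gad2, which encodes the decarboxylase tied to synaptic vesicles, changed less and less evenly. It had 545.4 and 443.8 normalised reads in the cKO libraries, against 374.0 and 392.0 in the Ctrl libraries. The cKO libraries differed from each other by 20.5% of their mean, the widest spread among the 8 genes. Gad2 rose 1.29-fold (log2 fold change 0.36 with SE 0.10, adjusted p 0.0031 in limma), but without cKO 1 the log2 fold change was 0.21 and no longer passed (adjusted p 0.135), nor did Gad2 pass without the trend of variance with level (adjusted p 0.0794), the range over 20 alternatives being 1.43e-14 to 0.135. Gad2 (ENSMUSG00000026787) spans chr2:22622205-22693874 on the plus strand.

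Under the authors' scaling the 3 Dlx genes had the steepest rises of the 8, whereas Snap25 and Stmn2 had the steepest once the GC trend was removed. Dlx1 had 2480.5 and 2488.3 normalised reads in the cKO libraries, against 1449.0 and 1362.2 in the Ctrl libraries. The cKO libraries were almost equal and both stood far above the Ctrl libraries, a rise of 1.77-fold (log2 fold change 0.82 with SE 0.05, adjusted p 8.70e-13 in limma). Its partner Dlx2 had 1252.5 and 1268.5 in the cKO libraries, against 634.0 and 664.8 in the Ctrl libraries. Again the groups did not overlap, and Dlx2 rose 1.94-fold (log2 fold change 0.96 with SE 0.07, adjusted p 5.38e-12 in limma). Dlx5, which acts after Dlx1 and Dlx2 in the ventral forebrain of mouse embryos, had 242.5 and 238.5 in the cKO libraries, against 102.0 and 111.0 in the Ctrl libraries. It rose 2.26-fold (log2 fold change 1.17 with SE 0.14, adjusted p 1.04e-07 in limma), and 3.5% of listed genes had a higher log2 fold change. Without the trend of variance with level, the limma adjusted p values of Dlx1, Dlx2 and Dlx5 were 0.00112, 8.2e-04 and 8.27e-04. Dlx5 (ENSMUSG00000029755) spans chr6:6877805-6882085 on the minus strand.

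Dlx1 (ENSMUSG00000041911, chr2:71528113-71533981, plus strand) and Dlx2 (ENSMUSG00000023391, chr2:71543408-71546754, minus strand) form a pair that points tail to tail with 9426 bases between them. Within each library Dlx1 had 1.98 and 1.96 times the reads of Dlx2 in the cKO libraries and 2.29 and 2.05 times in the Ctrl libraries. The log2 ratio of the pair differed by -0.13 between cKO and Ctrl cells (exact permutation p 0.333, two-sided, the smallest that 2 against 2 libraries allow). An antisense gene, Dlx1as, covers 335 of the 5396 exon bases of Dlx1, and as the strand setting of the counting is not given, its reads cannot be told apart from those of Dlx1. Gad1 lies 926098 bases from Dlx1 on the same chromosome. The 5 listed genes between them went both ways, 2 being higher (Gorasp2 and Cybrd1) and 3 lower (Tlk1, Dcaf17 and Dync1i2) in the authors' deposited table.

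Dcx was the exception among the 8. It had 2727.9 and 2831.2 normalised reads in the cKO libraries, against 3581.0 and 3773.2 in the Ctrl libraries. Both cKO values lay below both Ctrl values, at 2780 ± 73.0 in cKO cells and 3677 ± 136 in Ctrl cells (SD, n = 2 each). Dcx fell 1.32-fold (log2 fold change -0.40 with SE 0.04, adjusted p 2.32e-08 in limma) under the authors' scaling, but its log2 fold change was 0.27 with the trend with GC content removed (adjusted p 1.87e-05), 0.36 with GC content and length removed, and 0.09 with length alone removed (adjusted p 0.124). Over the 20 alternatives its limma, edgeR and DESeq2 adjusted p ran between 5.33e-18 and 0.124. The gene, ENSMUSG00000031285, spans chrX:143855842-143933311 on the minus strand.

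The ratio of Gad1 to Dcx needs no scaling between libraries. Gad1 had 56.9% and 58.8% of the reads of Dcx in the cKO libraries and 26.9% and 26.2% in the Ctrl libraries. The log2 ratio averaged -0.79 ± 0.03 in cKO cells and -1.91 ± 0.02 in Ctrl cells, a difference of 1.12 that was far larger than the spread between libraries, although the exact permutation p was again 0.333. With the GC trend removed the difference was 0.67.

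Stmn2 and Snap25 belong to growing and to releasing nerve endings. Stmn2, which encodes a microtubule-destabilising protein of growth cones, had 781.4 and 886.4 normalised reads in the cKO libraries, against 535.0 and 547.7 in the Ctrl libraries. It rose 1.54-fold (log2 fold change 0.62 with SE 0.08, adjusted p 2.31e-07 in limma). Snap25, which encodes a membrane fusion protein of synaptic vesicle release, had 342.9 and 350.0 in the cKO libraries, against 231.0 and 204.6 in the Ctrl libraries. It rose 1.59-fold (log2 fold change 0.67 with SE 0.11, adjusted p 1.33e-05 in limma). Without the trend of variance with level, the limma adjusted p was 0.00491 for Stmn2 and 0.0037 for Snap25. The groups of both genes were apart, with the cKO libraries spread more in Stmn2 and the Ctrl libraries more in Snap25. Stmn2 (ENSMUSG00000027500) spans chr3:8509360-8561606 and Snap25 (ENSMUSG00000027273) chr2:136713453-136782428, both on the plus strand.

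To compare levels between genes, normalised reads were divided by the gene length given in the file. In cKO cells the order was Dlx1 at 460.4 ± 1.0 normalised reads per kilobase, Dlx2 at 441.5 ± 4.0, Dcx at 219.8 ± 5.8, Gad1 at 210.4 ± 10.4, Stmn2 at 148.9 ± 13.3, Dlx5 at 106.3 ± 1.2, Gad2 at 84.2 ± 12.2 and Snap25 at 51.0 ± 0.7 (SD, n = 2 each). Of these neighbours only Dcx and Gad1 overlapped between libraries. In Ctrl cells the order was Dcx at 290.7 ± 10.7, Dlx1 at 260.5 ± 11.4, Dlx2 at 227.5 ± 7.6, Gad1 at 127.7 ± 2.6, Stmn2 at 96.6 ± 1.6, Gad2 at 65.2 ± 2.2, Dlx5 at 47.1 ± 2.8 and Snap25 at 32.1 ± 2.7, and no neighbours overlapped. With the GC trend left in, Dcx thus led in Ctrl cells and stood below both Dlx1 and Dlx2 in cKO cells. Likewise Dlx5 stood above Gad2 in cKO cells and below it in Ctrl cells. Once that trend was taken out, Dlx5 and Gad2 rose almost equally (0.80 and 0.82 on the log2 scale). The swap of Dlx5 and Gad2 thus depends on how GC content is treated. Dlx1, Dlx2 and Dcx then rose by 0.46, 0.53 and 0.27, and their order by level was not tested on that scale.

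The genes nearest to Gad1 in their pattern over the 4 libraries were Crtap, Trip10 and Ndp. Likeness was the distance between profiles of log2(value + 1), each minus its own mean, among 6442 genes that averaged at least 100 normalised reads, and these distances were 0.007, 0.024 and 0.025. Nearest to Dcx were Ggnbp2, Trim39 and Aph1b, at distances of 0.018, 0.019 and 0.020. Such likeness was common, as 88 genes lay within 0.1 of Gad1 and 348 within 0.1 of Dcx.

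The other genes of these cells were counted over 8 lists of neuronal genes, which hold 102 genes with the 10 above. Of the 102, 66 were listed, with 49 higher (74.2%) and 17 lower in cKO cells, against 46.7% higher over all listed genes. The median log2 fold change of the 66 was 0.62 and that of the 58 outside the first set 0.59. Together the 66 held 0.912% and 0.905% of the recovered reads of listed genes in the cKO libraries, against 0.891% and 0.896% in the Ctrl libraries. Their summed normalised reads differed by -0.04 on the log2 scale under the authors' scaling. With relative log expression factors the difference was 0.15, and with upper-quartile factors 0.11. Sums over all listed genes differed by -0.07, 0.12 and 0.09 in the same order. The direction of the neuronal total thus depends on the library factors, and the count of genes that rose does not give it. With the trend with GC content removed, 44 of the 66 were higher, 13 lower and 9 did not pass, while 32.9% of all listed genes were higher.

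**Figure D2:**
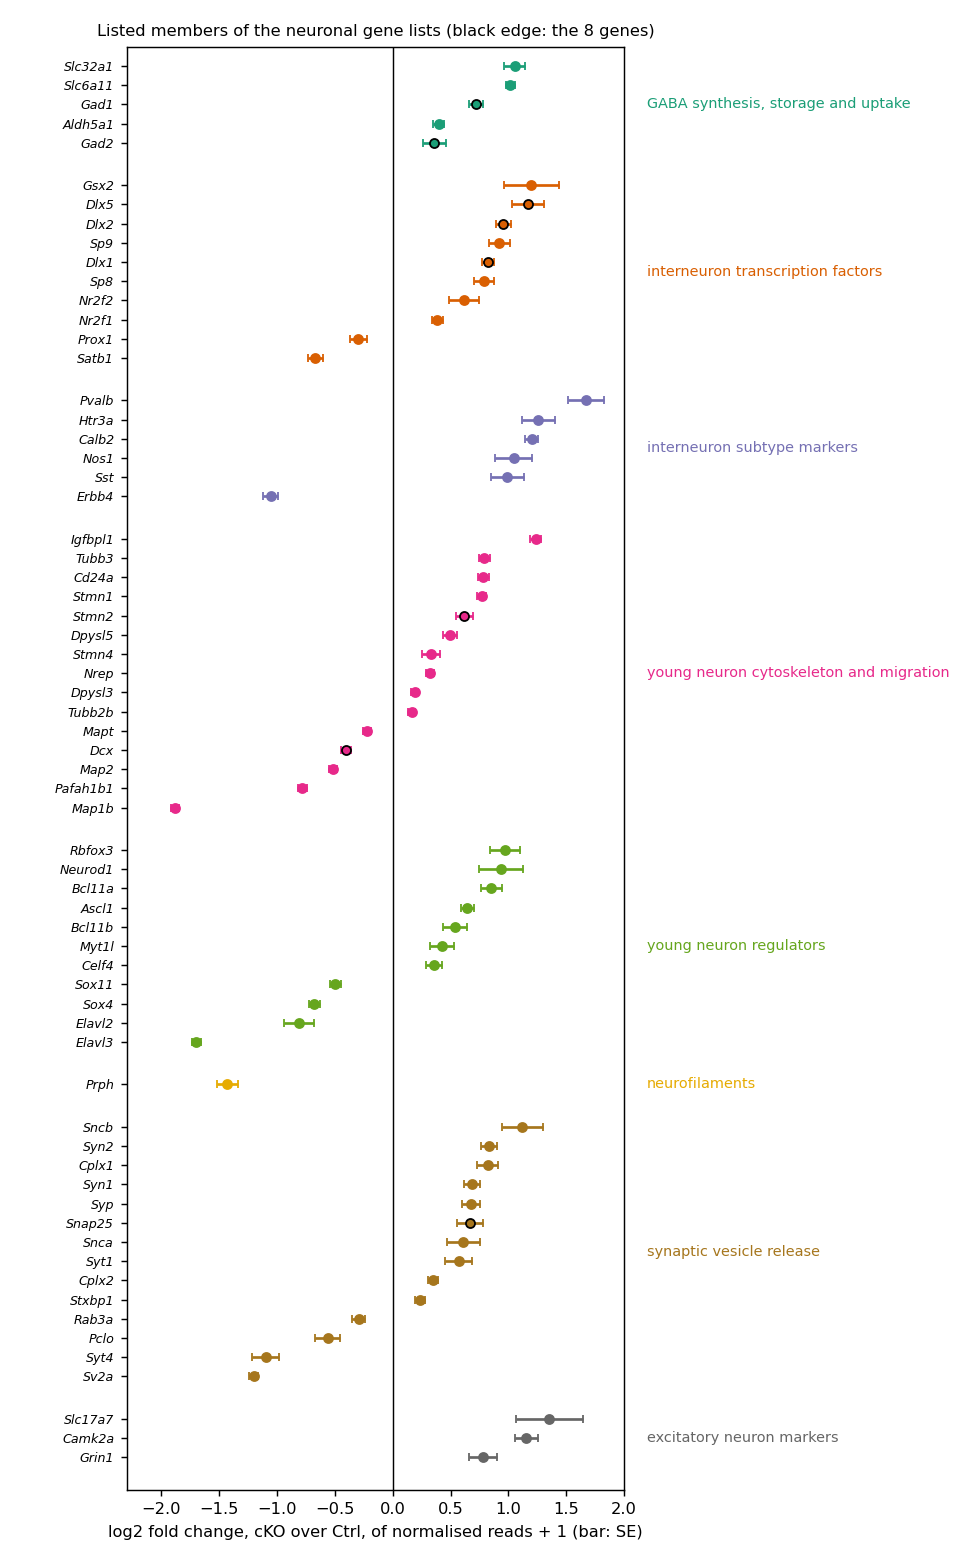
Log2 fold change of cKO over Ctrl (horizontal axis, on normalised reads + 1, bars SE) for listed members of the 8 neuronal lists, 1 gene being left out, with 2 libraries per genotype. GABA and excitatory genes all lie right of 0, Prph alone stands for the neurofilaments left of 0, and the other 5 lists hold members on both sides. Of the named genes, Dcx, Map2, Mapt, Pclo, Prox1 and Satb1 cross 0 when trends with GC content or length are removed.

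Genes of GABA handling rose throughout, since 5 of the 7 members were listed and each of these was higher, also with GC content removed. The median of their log2 fold changes was 0.72. Over all listed genes 46.7% were higher, or 32.9% with GC content removed. Slc32a1, the vesicular GABA transporter, had 537.3 and 554.1 normalised reads in cKO cells, against 266.0 and 258.6 in Ctrl cells, and rose 2.08-fold (limma adjusted p 6.90e-10). Slc6a11, a GABA transporter made chiefly by astrocytes, rose 2.03-fold, to 8830 ± 539 in cKO cells, against 4355 ± 60.3 in Ctrl cells (SD, n = 2 each). Aldh5a1, an enzyme of GABA breakdown, rose 1.32-fold. With GC content removed the log2 fold changes of Slc32a1 and Slc6a11 were 0.60 and 0.67, in place of 1.05 and 1.02.

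Transcription factors of interneurons were present in the table for 11 of 17 members. Of these 9 rose (81.8%, against 46.7% of all listed genes) and 2 fell. Their log2 fold changes had a median of 0.82. With GC content removed 8 were higher, 1 lower and 2 not called, against 32.9% higher and 34.6% lower over all listed genes. Beside the Dlx genes, Gsx2, which acts before them in the embryo, had 82.5 and 99.7 normalised reads in cKO cells, against 33.0 and 45.8 in Ctrl cells. It rose 2.31-fold (limma adjusted p 1.18e-04). Sp9, a zinc finger factor of interneuron precursors, rose 1.90-fold, with 766.7 and 659.7 in cKO cells, against 394.0 and 357.4 in Ctrl cells. The members that fell, singled out after their values were seen, were Satb1 (log2 fold change -0.67, and 0.01 with the length trend removed) and Prox1 (log2 fold change -0.30, and 0.09 with GC content removed). Lhx6 and Nkx2-1, factors of the medial ganglionic eminence, were not listed.

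Markers of interneuron subtypes were present in the table for 6 of 14 members. Of these 5 rose (83.3%, against 46.7% of all listed genes) and 1 fell. Their log2 fold changes had a median of 1.12. These counts were the same with GC content removed, against 32.9% higher and 34.6% lower over all listed genes. Pvalb, the calcium buffer parvalbumin, had 254.7 and 217.1 normalised reads in cKO cells, against 71.0 and 75.3 in Ctrl cells, and rose 3.22-fold (log2 fold change 1.67 with SE 0.15, adjusted p 1.68e-09 in limma). Calb2, which encodes calretinin, rose 2.30-fold to 2240 ± 102 in cKO cells, against 974.1 ± 63.7 in Ctrl cells. Htr3a, a serotonin receptor subunit, rose 2.41-fold, Nos1, a nitric oxide synthase, 2.10-fold and Sst, which encodes somatostatin, 1.98-fold. Erbb4, a neuregulin receptor found in interneurons and in the oligodendrocyte lineage, fell 2.08-fold, with 604.2 and 619.4 in cKO cells, against 1312.0 and 1235.0 in Ctrl cells. Its log2 fold change of -1.06 was -0.39 with GC content removed and -0.30 once length was removed as well. That of Sst was 0.60 with GC content removed, in place of 0.99.

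Cytoskeletal and migration genes of young neurons were split. Of 20 members 15 were listed, of which 10 rose (66.7%, against 46.7% of all listed genes) and 5 fell. Their log2 fold changes had a median of 0.32. With GC content removed 8 were higher, 4 lower and 3 not called, against 32.9% higher and 34.6% lower over all listed genes. Igfbpl1, a marker of young neurons, rose 2.36-fold to 3452 ± 19.3 normalised reads in cKO cells, against 1466 ± 70.6 in Ctrl cells. Tubb3, a neuronal tubulin, rose 1.73-fold, Cd24a, a surface protein, 1.72-fold and Stmn1, a relative of Stmn2, 1.70-fold. With GC content removed the log2 fold change of Tubb3 was 0.37 in place of 0.79, and that of Cd24a was 1.31 in place of 0.79. Map1b, a microtubule protein that oligodendrocytes also make, fell 3.69-fold, with 4732.4 and 4659.7 in cKO cells, against 17235.0 and 17371.2 in Ctrl cells (limma adjusted p 2.72e-23). Pafah1b1, a dynein regulator, fell 1.72-fold, but its log2 fold change of -0.78 was -0.05 once both GC content and length were removed. Dcx also fell, and Map2 and Mapt, microtubule proteins named after their values were seen, had log2 fold changes of -0.52 and -0.23, which turned to 0.10 and 0.12 with the length trend removed.

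Regulators of young neurons were split as well, with 11 of 16 members listed. Of these 7 rose (63.6%, against 46.7% of all listed genes) and 4 fell. Their log2 fold changes had a median of 0.43. With GC content removed 7 were higher, 3 lower and 1 not called, against 32.9% higher and 34.6% lower over all listed genes. Rbfox3, whose product marks mature neurons, rose 1.95-fold to 323.1 ± 11.2 in cKO cells, against 165.7 ± 30.6 in Ctrl cells. Neurod1, a factor of neuronal differentiation, rose 1.93-fold and Bcl11a, a zinc finger factor, 1.81-fold. Elavl3, an RNA-binding protein of neurons, fell 3.24-fold, with 2362.9 and 2232.0 in cKO cells, against 7310.0 and 7585.0 in Ctrl cells. Its relative Elavl2 fell 1.76-fold, although its log2 fold change of -0.81 was -0.03 with GC content removed. Sox4 and Sox11, which are active in young neurons and other progenitors, had log2 fold changes of -0.68 and -0.50, Sox11 being named after its value was seen. Sox11 had -0.21 with GC content removed and did not pass with GC content and length removed (-0.10, adjusted p 0.137 in limma). With GC content removed the log2 fold change of Rbfox3 was 0.54 in place of 0.97, and that of Neurod1 was 1.42 in place of 0.94.

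Among genes of synaptic vesicle release, 14 of 18 were listed. Of these 10 rose (71.4%, against 46.7% of all listed genes) and 4 fell. Their log2 fold changes had a median of 0.59. With GC content removed 8 were higher, 3 lower and 3 not called, against 32.9% higher and 34.6% lower over all listed genes. Sncb, which encodes beta-synuclein, rose 2.18-fold, Syn2, a synapsin, 1.78-fold, Cplx1, a complexin, 1.76-fold and Syn1, another synapsin, 1.61-fold. Sv2a, a vesicle membrane protein, fell 2.30-fold to 2416 ± 63.0 in cKO cells, against 5560 ± 62.1 in Ctrl cells, and Syt4, a synaptotagmin, fell 2.13-fold. With GC content removed the log2 fold change of Syt4 was -0.43 in place of -1.10, that of Sncb 0.67 in place of 1.12, that of Cplx1 0.43 in place of 0.82 and that of Syn1 0.27 in place of 0.69. Pclo, a protein of release sites, and Rab3a, a vesicle GTPase, both named after their values were seen, had log2 fold changes of -0.56 and -0.30, that of Pclo turning to 0.07 with GC content and length removed. Of the neurofilament list only Prph was listed, 1 of 5. Prph, which encodes the filament protein peripherin, fell 2.69-fold, with 249.8 and 290.7 in cKO cells, against 716.0 and 739.2 in Ctrl cells.

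Markers of excitatory neurons were listed for 3 of 9 members, all 3 higher, also with GC content removed. Over all listed genes 46.7% were higher, or 32.9% with GC content removed. Camk2a, a kinase of excitatory synapses, rose 2.23-fold to 541.9 ± 49.2 in cKO cells, against 242.6 ± 11.9 in Ctrl cells. Grin1, a glutamate receptor subunit, rose 1.73-fold, its log2 fold change being 0.35 with GC content removed in place of 0.78. Slc17a7, a vesicular glutamate transporter, was low, with 84.1 and 49.8 in cKO cells, against 25.0 and 24.4 in Ctrl cells, and rose 2.71-fold (limma adjusted p 3.25e-04). The cortical excitatory factors Tbr1, Neurod2 and Neurod6 were not listed.

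Markers of other cell types moved in the same libraries, and their part in the neuronal changes was not tested. The counts below stand beside 46.7% higher and 53.3% lower over all listed genes. Of 12 astrocyte markers 11 were listed, 9 higher and 2 lower, and their summed normalised reads were 771559 and 764521 in cKO cells, against 511353 and 512203 in Ctrl cells. Of 12 pericyte and fibroblast markers 10 were listed, all 10 higher, with sums of 15839 and 15232 in cKO cells, against 5828 and 5553 in Ctrl cells. Of 12 precursor markers 10 were listed, 2 higher and 8 lower, with sums of 43199 and 41989 in cKO cells, against 59640 and 60411 in Ctrl cells. All 10 listed myelin markers fell. No listed marker of these lists was at 0 in any library, the lowest value being 26.5. For comparison, the 5 GABA genes summed to 14298 and 13630 in cKO cells, against 7851 and 7878 in Ctrl cells. Most of that sum was Slc6a11, the transporter made chiefly by astrocytes. It had 9210.9 and 8448.5 in cKO cells, against 4398.0 and 4312.8 in Ctrl cells. The 15 cytoskeletal genes summed to 90535 and 89400 in cKO cells, against 96499 and 97388 in Ctrl cells. On the log2 scale the cytoskeletal sum differed by -0.11 and the vesicle release sum by -0.09 between cKO and Ctrl cells, and both differences turned with relative log expression factors (to 0.08 and 0.10) and with upper-quartile factors (to 0.05 and 0.07).

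**Figure D3:**
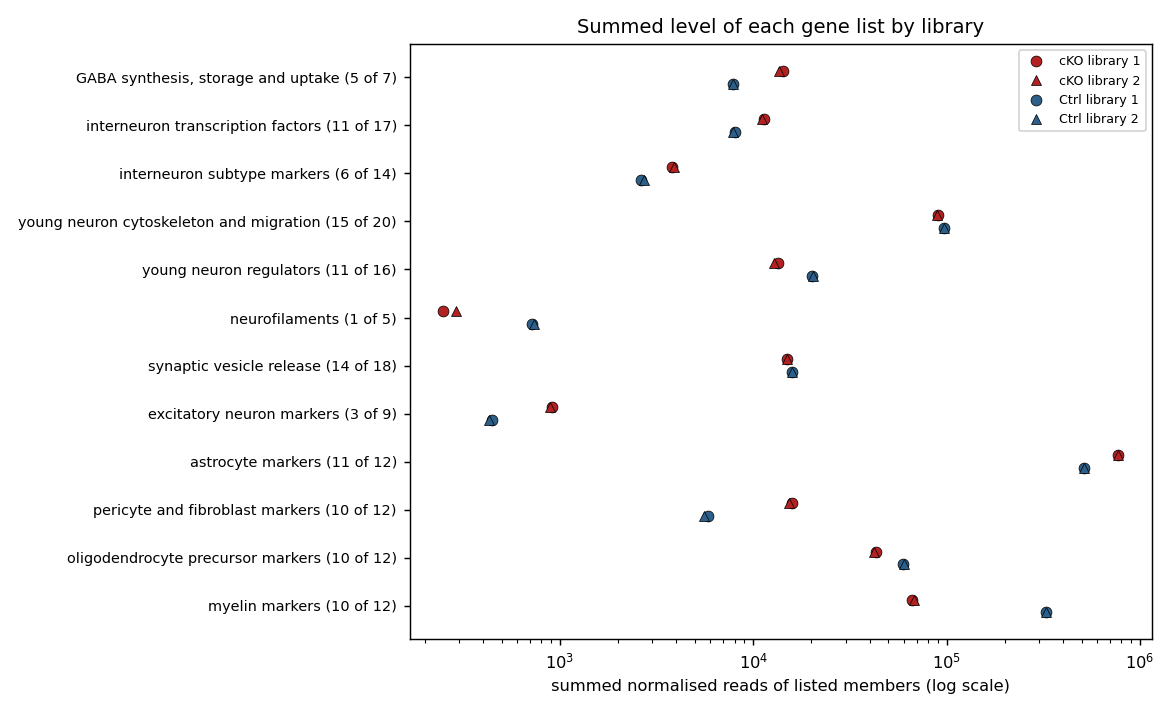
Summed normalised reads of the listed members of each list (horizontal log axis) in each library, cKO in red above Ctrl in blue. The GABA, interneuron and excitatory lists lie higher in both cKO libraries, and the regulators and the neurofilament Prph lie lower. Most of the GABA sum is Slc6a11, a transporter made chiefly by astrocytes. The cytoskeleton and vesicle release sums lie slightly lower under the authors' scaling drawn here, a direction that turns with the other library factors. Astrocyte and fibroblast sums lie higher, and precursor and myelin sums lie lower.

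The direction of Dcx, and the sizes of the other changes, depended on how GC content was treated. Over 6934 listed genes with a transcript in GENCODE M21, log2 fold change and GC content of the longest transcript had a Spearman correlation of 0.511, given as a description across genes, which are not independent replicates. Dlx2, Dlx5 and Dlx1 had GC contents of 58.3%, 54.7% and 54.6%, above the median of 49.4%, whereas Snap25 (38.7%), Dcx (40.6%), Stmn2 (41.3%), Gad2 (44.1%) and Gad1 (47.3%) lay below it. Once this trend was removed, Snap25, Stmn2, Gad2 and Gad1 had log2 fold changes of 1.45, 1.25, 0.82 and 0.93, each larger than before. Those of Dlx1, Dlx2 and Dlx5 were 0.46, 0.53 and 0.80, each smaller than before. All 7 still passed, and with Dcx turned to 0.27 all 8 were higher. The trend was fitted on listed genes alone.

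**Figure D4:**
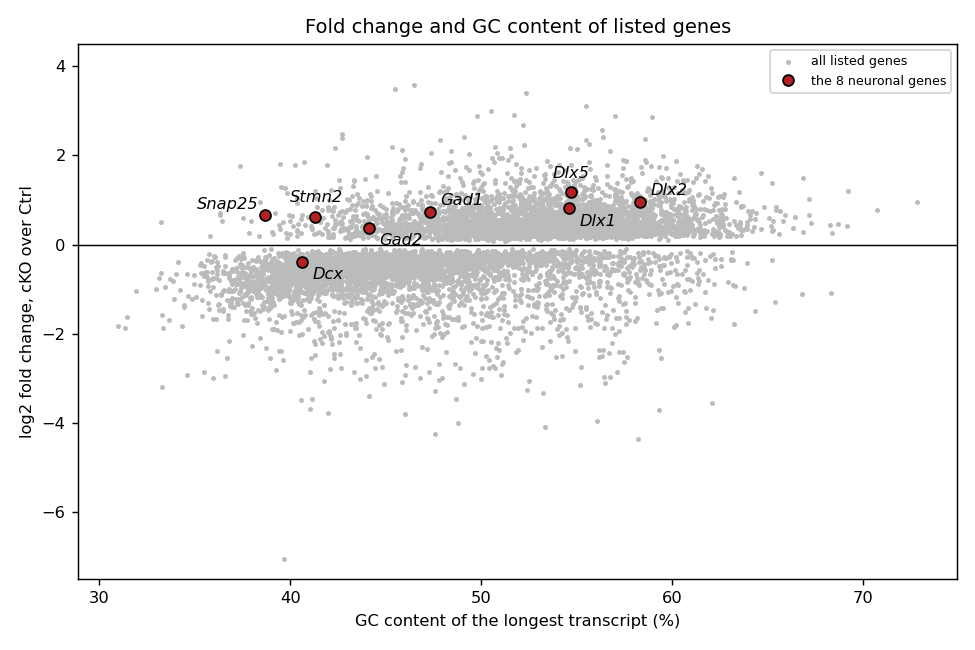
Log2 fold change of cKO over Ctrl (vertical axis) against GC content of the longest transcript in percent (horizontal axis) for listed genes in grey, with the 8 genes in red. Snap25 and Stmn2 lie above 0 among low-GC genes that are mostly below 0, and Dcx lies below 0 at a GC content of 40.6%, its direction turning with the GC trend removed.

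Scaling by relative log expression factors raised log2 fold changes by 0.191 at the median and upper-quartile factors by 0.155, and the log2 fold change of Dcx was then -0.21 and -0.25. With relative log expression factors 7 of the 8 genes were called higher and 1 lower, against 88.8% of listed genes called, 46.8% higher and 42.0% lower. The same 7 and 1 were called by DESeq2 with its own size factors on recovered reads (83.1% of listed genes called, 46.8% higher and 36.3% lower) and by edgeR's quasi-likelihood test (98.6% called, 46.7% higher and 51.8% lower). Without the variance trend 6 of the 8 were called higher and 1 lower, Gad2 being lost (93.1% called, 42.7% higher and 50.4% lower). With the GC trend removed all 8 were called higher (67.5% called, 32.9% higher and 34.6% lower), as they were with GC and length trends removed (68.6% called, 33.3% higher and 35.3% lower). With the length trend alone removed 7 were called higher and Dcx was not called (80.2% called, 39.0% higher and 41.2% lower).

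**Figure D5:**
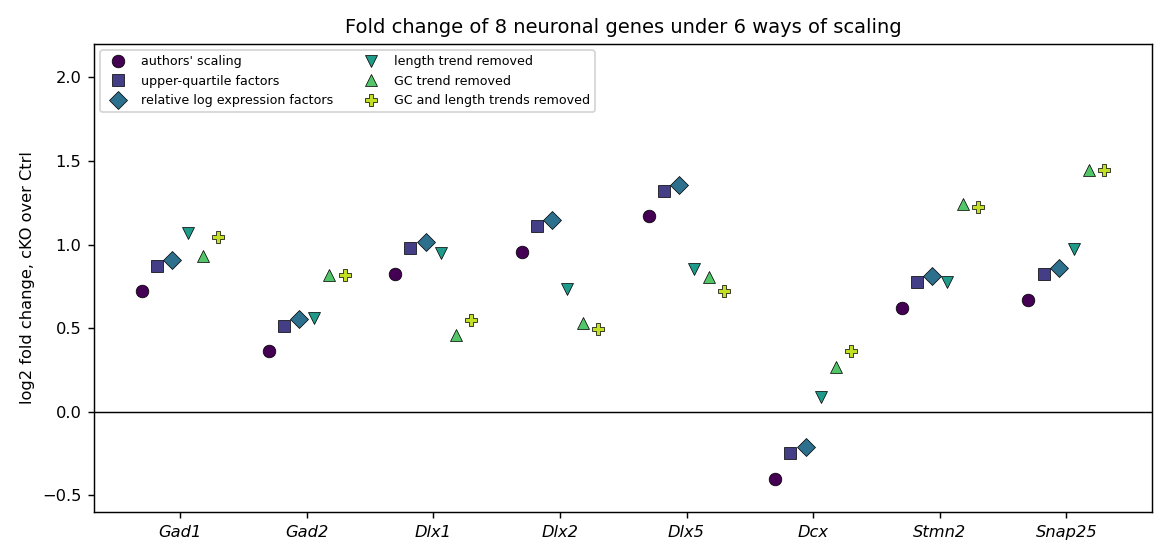
Log2 fold change of cKO over Ctrl (vertical axis) of the 8 genes under the authors' scaling and 5 alternatives, 1 marker each. Dcx lies below 0 under the authors' scaling and both sets of library factors, and above 0 when trends with length or GC content are removed, while the other 7 genes lie above 0 throughout.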

How the data were processed

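RNA of cultured mouse oligodendrocytes was sequenced in 4 libraries, 2 cKO and 2 Ctrl. The authors deposited a table of gene lengths, normalised signal values for every library and genotype means, per the file headers. It also holds the authors' own log2 fold changes and their raw and adjusted p-values. The submitters' processing notes name DESeq2 and the builds mm10 and GRCm38. The aligner, counting tool and strand setting are not given in the sources used here. All values were whole multiples of 1 step per library (100% within 0.01 read), a read being worth 0.8165 and 1.1866 in cKO 1 and cKO 2 and 1.0 and 1.0181 in Ctrl 1 and Ctrl 2. Listed genes had an adjusted p up to 0.0499, and 17347 genes lay behind that adjustment (40.0% listed). Columns of other samples numbered 0.

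Genotypes were compared over all 6940 genes with limma 3.58.1 (R 4.3.3) on log2(value + 1), with a variance trend and genotype as the only term. Genes were kept with at least 1 normalised read in 2 libraries, and p-values were adjusted by the Benjamini-Hochberg method over 17347 genes. Variances were pooled over genes selected for their difference, so the p-values may be too low. Fold changes on this scale understate the change of low genes, and folds in the text are ratios of means. edgeR 4.0.16 and DESeq2 1.42.0 on recovered reads served as alternatives. The fits were also run on simulated data, with the outcome not reported here. GC content came from the longest GENCODE M21 transcript of each gene, and trends were removed in each library by local regression (span 0.3). The 8 genes had the same spans in that annotation. The genes, the 13 lists and the naming rule were chosen with earlier results of these data known. The rule named all listed genes of the first set, up to 6 members of each list by size of change, and the 3 genes nearest to Gad1 and to Dcx. Some members of the lists are counted but not reported by name here.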

Additional observations from a re-analysis of the deposited data

How the results depend on the processing

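Across 20 alternative settings, the 49 named neuronal genes kept their direction under every library scaling, pseudocount, filter, test tool and left-out library that gave them a value, and directions turned only with trends removed. Dcx had log2 fold changes of 0.27 with the GC trend removed, 0.36 with GC and length trends removed, 0.09 with the length trend removed and 0.27 with the replicate block and GC trend together, so that 0 of the 8 genes were called lower in these 4 settings. With the length trend removed Map2, Mapt, Pclo, Prox1 and Satb1 turned to 0.098, 0.12, 0.179, 0.069 and 0.009. With GC and length trends removed Pclo and Prox1 turned to 0.071 and 0.174, and Prox1 was 0.085 with the GC trend removed, with or without the block. Genes called lower over the whole table numbered 3696, but 2401 with the GC trend removed, 2447 with GC and length removed and 2433 with the block and GC trend. Members of the neuronal lists called lower numbered 17, but 11 with GC and length removed. The cause was not tested. Mapt, Prox1 and Rab3a no longer passed with relative log expression, upper-quartile or DESeq2's own factors, Gad2 without cKO 1 or without the variance trend, and Prox1 without Ctrl 2. With the GC trend removed the calls of Elavl2 and Pclo were lost, and those of Elavl2, Pafah1b1, Satb1 and Sox11 were lost with GC and length trends removed.

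Replicate numbers are shared between the genotypes, but nothing in the labels pairs the libraries, and the deviations of same-numbered libraries had a correlation of -0.017 over 6703 genes. With the replicate block limma called 3242 genes higher and 3696 lower, and the 8 genes kept 7 higher and 1 lower. Leaving out a library left 1 sample in a genotype, assumed to vary like the other genotype. Genes outside the table, Nefl and Nefm among them, were not analysed here, and library factors and trends were fitted on listed genes alone.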
